A study of Macaca mulatta with 4 samples.

Results

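Chromosome 16 of the rhesus macaque (Macaca mulatta) was examined through every DNase I hotspot that the deposited lists place on it, 14185 of 328084 hotspots (4.32%) in 4 libraries. Where hotspots of different libraries overlapped or touched they were merged, which gave 8590 regions on the chromosome of 222970 in all (3.85%). The members were taken by chromosome name alone, but the chromosome itself was chosen by its measured share of covered bp in the 2 kinds of embryo. That share, and each AG against GG difference that follows from it, is therefore given as a description and supports nothing.

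All 4 libraries came from embryos at the morula, an early stage in which the cleaving cells form a solid cluster. Androgenetic (AG) embryos carry a nuclear genome of sperm origin alone, and gynogenetic (GG) embryos one of oocyte origin alone, with 2 libraries of each. All 4 were digested for 5 min at 37 °C with DNase I at 40 U/ml. No biparental embryo was among the libraries, so neither group is a normal control. Neither the number of embryos per library nor the donor animals are stated in the labels, so whether the libraries of a group share embryos or donors is unknown and the spread between them may be technical.

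DNase I cuts DNA that is free of tightly packed nucleosomes, so a hotspot, a stretch with more cuts than its surroundings, marks accessible chromatin such as active promoters and enhancers. In early embryos accessibility is set up anew after fertilisation, as the embryonic genome becomes active. Macaque chromosome 16 is the counterpart of human chromosome 17, a gene-rich chromosome. Among its genes are BRCA1, which acts in DNA repair, STAT3, a transcription factor of cytokine signalling, ERBB2, a growth factor receptor, SOX9, a transcription factor of cartilage and testis, COL1A1, a chain of type I collagen, and the HOXB genes, which pattern the body axis. In the RefSeq gene table of the T2T-MMU8v2.0 assembly, 7 of 7 such symbols looked up, HOXB1 and HOXB9 among them, lie on chromosome 16. Hotspot positions are in the rheMac8 build, counted from 1, and no annotation or sequence of that build was used here, so no hotspot is assigned to a gene and no sequence is shown.

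The 4 lists differed in length, from 64730 hotspots in AG replicate 1 to 93171 in GG replicate 1, and give no counts of reads, so sequencing depth is unknown and its part in list length was not tested. The score of a hotspot is the authors' own value on an unstated scale, and it serves here to describe and rank hotspots within a list.

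Chromosome 16 was densely covered with hotspots in every library. The AG lists placed 3145 and 3877 hotspots on it (replicates 1 and 2), which spanned 3.57 and 4.21 Mb, and the GG lists placed 3998 and 3165, which spanned 4.79 and 3.68 Mb. The groups overlapped in both measures, and the longest and the second shortest totals both belonged to GG. Up to the end of the last hotspot in any list, at 77216682, this came to 40.7 and 50.2 hotspots per Mb in AG and 51.8 and 41.0 in GG. The median of the other 19 autosomes was 24.7 to 33.1 per Mb in the 4 libraries, and chromosome 16 ranked 2 of 20 in each of them.

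**Figure D1:**
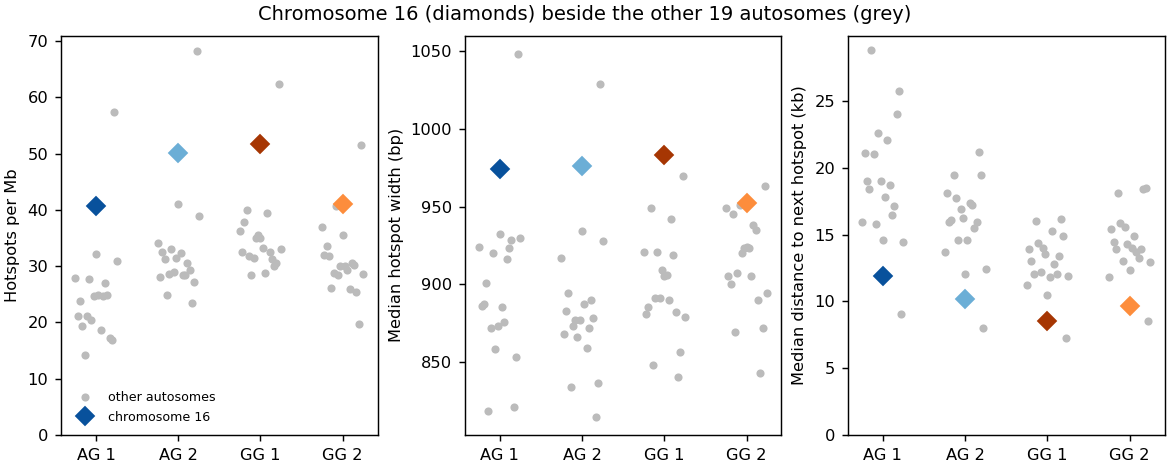
Hotspots per Mb, median hotspot width in bp and median distance to the next hotspot in kb, by library, for chromosome 16 (diamonds) and each of the other 19 autosomes (grey points). Chromosome 16 ranks 2 of 20 in density in all 4 libraries and 1 or 2 of 20 in median width, and its median distance to the next hotspot, 8.51 to 11.9 kb, is the second shortest in each library.

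As a share of all covered bp of a library, chromosome 16 held 5.27% and 5.00% in AG replicates 1 and 2 and 4.69% and 3.95% in GG replicates 1 and 2. Both AG libraries lay above both GG libraries, with means of 5.13 ± 0.195% and 4.32 ± 0.521% (SD, n = 2 libraries each), a ratio of 1.19. GG replicate 2 was the lowest and carried much of the distance. With all libraries AG exceeded GG by 0.809 percentage points, by 0.441 without GG replicate 2 and by 1.18 without GG replicate 1. The absolute covered length went the other way, at 3.89 ± 0.450 Mb in AG and 4.24 ± 0.783 Mb in GG. This difference of -0.345 Mb turned to 0.208 Mb without GG replicate 1 and to 0.346 Mb with all lists shortened to equal covered length over the genome. With equal totals the covered length is the share in another unit, so the last value only restates the share of the shortened lists.

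Hotspots on chromosome 16 were typically about 1 kb wide. The median width was 974 and 976 bp in AG replicates 1 and 2 and 983.5 and 952 bp in GG replicates 1 and 2, so the groups overlapped (two-sided exact permutation p = 1). The medians of the other autosomes had a median of 887, 877, 891 and 920 bp in the same order of libraries. Wide hotspots made up a larger share in both GG libraries than in either AG library. Hotspots over 3 kb numbered 105 of 3145 (3.34%) and 92 of 3877 (2.37%) in AG and 199 of 3998 (4.98%) and 140 of 3165 (4.42%) in GG. The shares did not overlap between groups, with an AG mean of 2.86 ± 0.683% (SD, n = 2) and a GG mean of 4.70 ± 0.392% (SD, n = 2). The exact permutation p was 0.333, two-sided, which is the smallest that 2 libraries against 2 can give. The difference of -1.84 percentage points came to -2.97 with lists cut to equal number and -4.38 with lists cut to equal covered length, and no alternative turned its direction. Both cuts kept the higher-scoring hotspots, which tended to be wider, and left AG replicate 1, the shortest list, whole. They can therefore enlarge the difference by construction, and its growth is no further support. Leaving out a replicate could not turn it, as the groups did not overlap. The same order held in the median of the other autosomes, with 2.38% and 1.61% in AG and 3.73% and 3.52% in GG.

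The widest single hotspots were chr16:40531024-40538246 in AG replicate 1 (7223 bp), chr16:49169292-49175552 in AG replicate 2 (6261 bp), chr16:48528601-48537213 in GG replicate 1 (8613 bp) and chr16:25539549-25546007 in GG replicate 2 (6459 bp). The first 3 overlapped hotspots of all other libraries, and the last overlapped hotspots of AG replicate 1 and GG replicate 1 but not of AG replicate 2. Wider hotspots also had higher scores within each list, with a Spearman correlation across hotspots of 0.582 and 0.580 in AG and 0.665 and 0.664 in GG. On each other autosome too, both GG lists had a higher correlation than both AG lists. Hotspots are not independent replicates, and a wide hotspot can hold more cuts, so this is a description of the lists. Neighbouring hotspots were close together. The median gap to the next hotspot was 11.9 and 10.1 kb in AG and 8.51 and 9.67 kb in GG, and 31.0% and 32.4% of gaps in AG and 38.7% and 36.6% in GG were under 5 kb.

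Hotspots were spread unevenly along the chromosome, in a pattern that all 4 libraries shared. In windows of 1 Mb the covered length was highest from 7000001 to 8000000, with 124 and 122 kb in AG and 147 and 124 kb in GG. Of the 159 merged regions centred there, 32 were called in all 4 libraries. The next densest windows began at 48000001 (91.2 and 98.5 kb in AG, 125 and 97.0 kb in GG), 44000001, 68000001 and 4000001. In the 5 densest windows the mean over libraries was 92.7 to 129 kb and the AG minus GG log2 differences, scaled to each library as described below for all windows, were between -0.14 and 0.42. The groups overlapped in each of these windows except the one from 4000001, where both AG libraries lay higher.

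Open chromatin was scarcest in 2 troughs inside the chromosome. The windows with the least covered length began at 77000001, 35000001, 36000001, 64000001 and 65000001, with means of 6.01 to 11.5 kb. The first of these holds only the last stretch up to 77216682, so its total does not compare with those of full windows. The window from 36000001 had 5.32 and 9.60 kb in AG and 8.97 and 4.28 kb in GG, and none of its 28 regions was called in all 4 libraries. Of the 5 longest stretches without a hotspot in any list, 3 lay there or reached into the next window: chr16:36090158-36290123 (199.97 kb), chr16:36912433-37109186 (197 kb) and chr16:36761710-36911755 (150.05 kb). The other two were chr16:14350528-14526911 (176 kb) and chr16:65313175-65470007 (157 kb). In all, 13 stretches over 100 kb were empty, 2.34% of the chromosome, and only 1 autosome had a smaller share of its length in such stretches.

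**Figure D2:**
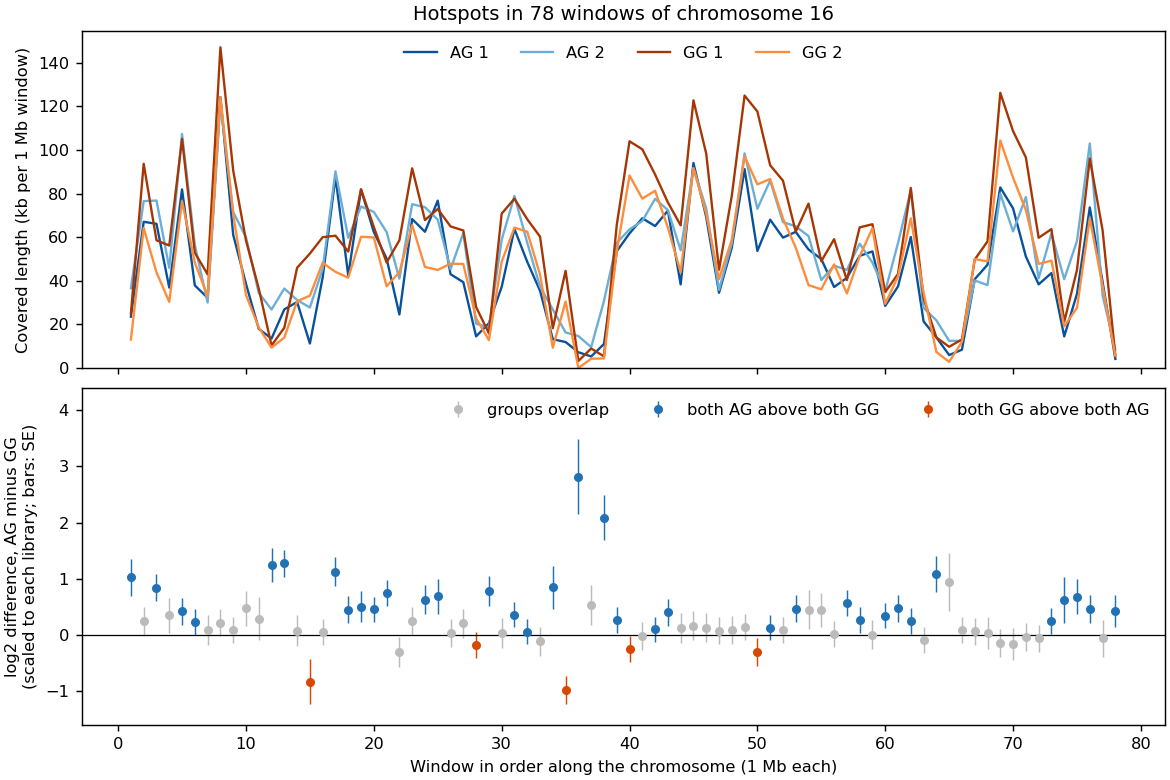
Upper panel: covered length in kb per 1 Mb window for the 4 libraries, in order along chromosome 16. Lower panel: AG minus GG log2 difference of the scaled values with SE from limma, coloured by whether the groups overlap. The 4 profiles rise and fall together, and the highest points of the lower panel, at log2 2.82 and 2.09, lie in the sparse windows that begin at 35000001 and 37000001.

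The libraries followed each other along the chromosome closely. Across 78 windows the Pearson correlation of scaled values was 0.937 between the AG libraries, 0.967 between the GG libraries and 0.829 to 0.899 between an AG and a GG library. Windows are neighbours on 1 chromosome and share its profile of density, so these values describe the lists and carry no p. Over all windows of the genome the same correlations were 0.890, 0.891 and 0.775 to 0.813.

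The AG and GG libraries were then compared window by window. Covered bp plus an offset of 1000 bp was scaled to the average window of its library, among windows that held at least 2000 covered bp in the mean of the libraries. The log2 values were tested with limma over the whole genome. Every window of chromosome 16 passed the minimum. By limma, 0 of 78 windows reached an adjusted p of 0.05, as did 0% of all 2682 windows. At an unadjusted p under 0.05 there were 11 of 78 windows, 14.1%, against 18.0% of all windows, and 10 of the 11 were higher in AG, a direction that 6.67% of all windows took at this level. With a variance trend in limma 9 windows of chromosome 16 passed, all higher in AG (over the genome 3.36% passed in this direction and 4.77% in the other). An offset of 10000 bp let 5 pass, again all higher in AG (1.38% in this direction and 3.69% in the other over the genome). The values are scaled to the whole library, so the chromosome's higher AG share, by which it was chosen, enters the direction of these counts.

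Scaled to each library, both AG libraries lay above both GG libraries in 35 of 78 windows (44.9%, against 24.1% over the genome) and below both in 5 (6.41%, against 28.9%). The median difference was log2 0.24 on the chromosome, 0.12 without GG replicate 2, and -0.04 over all windows. By this median chromosome 16 ranked 4 of 20 autosomes, after chromosomes 19 (log2 0.56), 20 (log2 0.53) and 10 (log2 0.37). These counts follow from the chromosome's share, which led to its choice. Of the windows whose groups did not overlap, 87.5% were higher in AG. Each library was also centred on its mean log2 value within each chromosome. That mean is not the share itself, as each window counts equally in it, however sparse. After centring, 16 windows (20.5%, against 28.3% over the genome) were higher in both AG libraries. Both GG libraries were higher in 28 (35.9%, against 22.5%), so that 36.4% of the windows without overlap were higher in AG. With median scaling, under which the median over all windows was log2 0.08, 95.9% were higher in AG, and with windows of 200 kb 72.0% were. Over the genome, 31.1% of windows lay higher in both AG and 21.7% in both GG libraries with median scaling. With windows of 200 kb these genome shares were 22.5% and 24.7%. Differences over 2-fold occurred in 7 windows, all higher in AG (2.65% over the genome), and in 0 windows higher in GG (8.72% over the genome).

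The windows with the smallest p in each direction are named here. The window from 12000001 to 13000000 held 26.9 and 36.5 kb of hotspots in AG against 18.5 and 14.0 kb in GG. Both AG values were higher without any scaling, and the scaled difference was log2 1.27 (SE 0.24, 2.42-fold, limma adjusted p = 0.145). In the adjacent window from 11000001 the AG lists covered 13.5 and 26.9 kb and the GG lists 10.3 and 9.39 kb, a scaled difference of log2 1.25 (SE 0.30). From 16000001 to 17000000 there were 87.6 and 90.2 kb in AG and 60.7 and 44.1 kb in GG (log2 1.13, SE 0.25), and this window alone held 11 AG-only regions against 3 GG-only regions. It opens the longest run of adjacent windows with both AG above both GG, 5 windows up to 21000000. There hotspots made up 0.478% and 0.425% of all covered bp in AG and 0.303% and 0.261% in GG.

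The widest differences on the chromosome lay in its central trough. From 35000001 to 36000000 hotspots covered 7.25 and 14.7 kb in AG and 3.25 and 0 kb in GG. AG replicates 1 and 2 had 9 and 17 hotspots in this window, GG replicate 1 had 6 and GG replicate 2 had none. The scaled difference was log2 2.82 (SE 0.67, limma adjusted p = 0.157), a value that rests on the offset because a library is at 0; with an offset of 10000 bp it was log2 1.12, and without GG replicate 2 it was log2 1.84. From 37000001 to 38000000 the AG lists covered 11.0 and 30.7 kb and the GG lists 5.37 and 4.41 kb (log2 2.09, SE 0.40, limma adjusted p = 0.149), and with an offset of 10000 bp the difference was log2 1.25. Few positions were shared in either window. Of 31 regions centred in the first and 48 in the second, 1 each was AG-only and 0 each were GG-only or called in all 4 libraries.

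Directly before this trough the direction was the opposite. From 34000001 to 35000000 hotspots covered 11.9 and 16.3 kb in AG and 44.6 and 30.5 kb in GG (log2 -0.98, SE 0.26, 1.98-fold higher in GG, limma adjusted p = 0.172). GG libraries had 43 and 27 hotspots there and AG libraries 15 and 18, with 4 GG-only regions and 0 AG-only. From 14000001 to 15000000 hotspots spanned 11.3 and 27.8 kb in AG and 52.5 and 33.2 kb in GG (log2 -0.83, SE 0.39), and the difference was log2 -0.37 without AG replicate 1. The remaining windows with both GG libraries higher began at 49000001 (log2 -0.30, SE 0.25), 39000001 (log2 -0.25, SE 0.24) and 27000001 (log2 -0.17, SE 0.23), with limma adjusted p of 0.550 to 0.717.

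Segments of 10 Mb were compared as shares of each library's own chromosome 16, a measure that the chromosome's total does not enter. The AG libraries had more of it in the first 30 Mb. From 1 to 10000000 lay 15.9% and 16.2% in AG against 15.2% and 14.6% in GG, and from 10000001 to 20000000 lay 11.6% and 11.8% against 10.1% and 9.77%. The GG libraries had more of it in the middle, with 19.2% and 19.3% from 40000001 to 50000000 against 18.0% and 16.6% in AG, and from 60000001 to 70000000, with 11.2% and 12.4% against 11.0% and 10.3%. The groups did not overlap in 6 of 8 segments, 3 higher in AG and 3 in GG. Over all autosomes 61.5% of segments did not overlap, 27.7% higher in AG and 33.8% in GG. Shares of a chromosome add up to its whole, so segments are not independent.

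Hotspots of chromosome 16 were found again in other libraries more often than those of most autosomes. The Jaccard index divides the bp that a pair of lists shares by the bp that either covers. It was 0.312 within GG, 0.206 within AG and 0.184 to 0.220 in the 4 mixed pairs, of which each combines both groups. The AG pair thus fell among the mixed pairs and the GG pair above them. The corresponding indices over the genome were 0.247, 0.168 and 0.143 to 0.173. Chromosome 16 ranked 2 of 20 autosomes in all 6 pairs, behind chromosome 19. It also ranked 2 in density in all 4 libraries, and the part of density in its higher overlap was not tested. With only the higher-scoring 50% of hotspots kept per list, the AG pair, at 0.240, lay slightly above the mixed pairs (0.207 to 0.237).

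Repeat detection was more frequent at higher scores. Each list was split by score into 5 classes of equal size. In the lowest class 19.1% and 13.1% of the hotspots of AG replicates 1 and 2 overlapped a hotspot of the other AG library, and in the highest class 80.8% and 75.1% did. In GG replicates 1 and 2 the shares were 17.4% and 30.2% in the lowest and 86.8% and 92.1% in the highest class. Hotspots of other autosomes in the same score ranges were found again less often in every class of every library, and in the highest class they reached 74.9% and 65.6% in AG and 84.2% and 87.1% in GG. The higher repeat share of chromosome 16 was thus present within score classes. A hotspot counted as found again from 1 bp of overlap, which dense and wide hotspots reach more easily. Classes were not matched for density or width, and the part of either was not tested. In the highest class, 62.6 to 70.4% were also found in both libraries of the other group, and 4.74 to 14.6% in no other library.

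**Figure D3:**
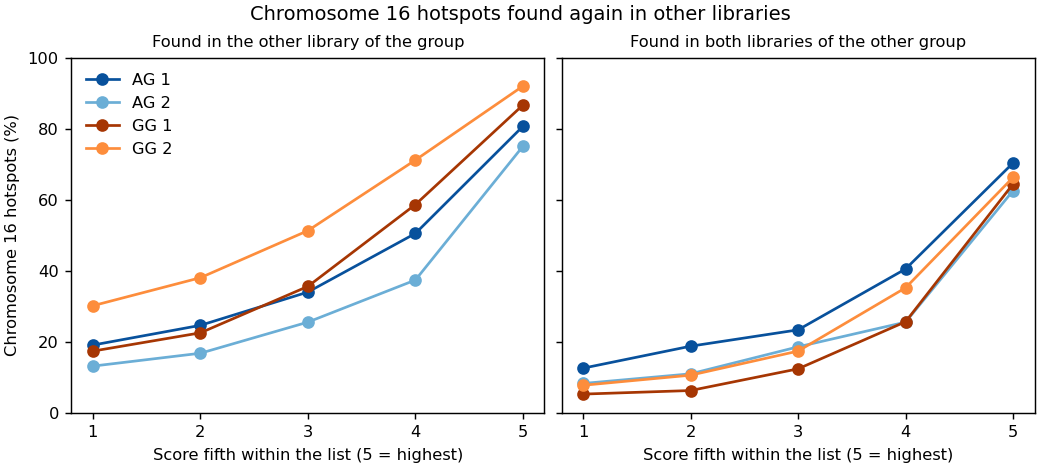
Share of chromosome 16 hotspots, in percent, that overlap a hotspot of the other library of their group (left) or of both libraries of the other group (right), by score class within each list, 5 classes from lowest to highest. The shares climb in all 4 libraries, from 13.1 to 30.2% in the lowest to 75.1 to 92.1% in the highest class on the left.

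Of the 8590 merged regions, 5836 (67.9%) came from a single list, 1330 (15.5%) from 2 lists, 634 (7.38%) from 3 and 790 (9.20%) from all 4. Over the genome 74.9% were called in 1 library and 5.90% in all 4. Regions in all 4 libraries numbered 10.2 per Mb and made up 24.2% of the merged length of the chromosome, although they were 9.20% of its regions. Their median width was 2875 bp against 782 bp for regions of 1 library. Merging joins hotspots of several lists, which widens shared regions by construction. Regions called in GG replicate 2 alone made up 11.7% of regions on the chromosome and 18.0% over the genome, while those of AG replicate 2 alone were at 23.0% and 22.6%.

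**Figure D4:**
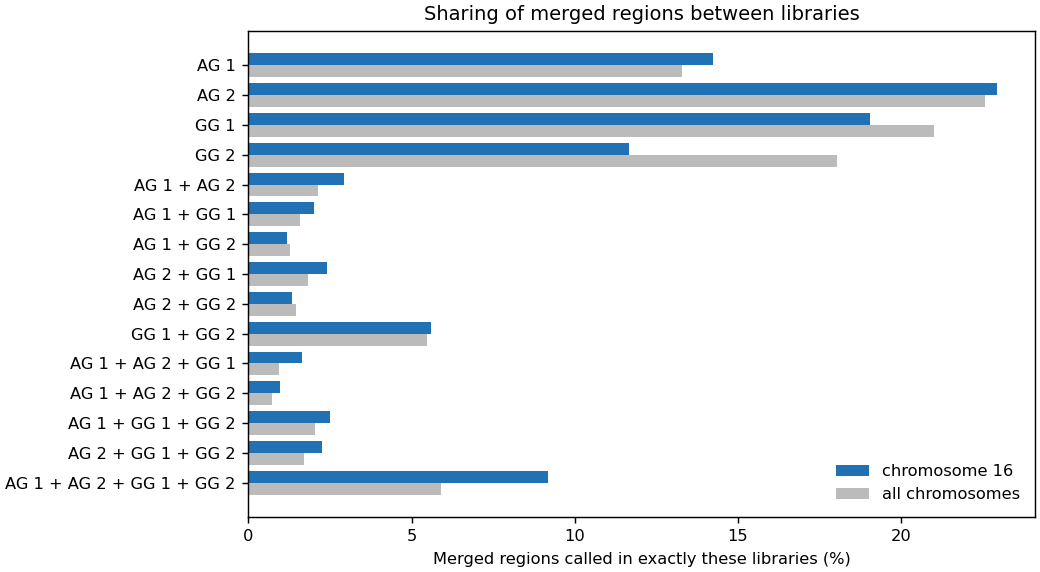
Percent of merged regions called in exactly the libraries named, for chromosome 16 (blue) and all chromosomes (grey). Regions of GG 2 alone are at 11.7% on chromosome 16 and 18.0% over the genome, and regions of all 4 libraries at 9.20% and 5.90%.

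Regions called in both AG and neither GG library (AG-only) numbered 252, 2.93% of the chromosome's regions against 2.12% over the genome. Regions called in both GG and neither AG library (GG-only) numbered 481, or 5.60% against 5.48% over the genome. GG-only regions were thus 1.91 times as many as AG-only regions. This ratio was lower than on most autosomes, rank 4 of 20 from the lowest. Over the genome there were 12226 GG-only and 4730 AG-only regions. The 4 mixed pairs, which combine an AG with a GG library, had 101 to 206 regions each to themselves, so both group counts lay above each mixed pair. With lists shortened to equal covered length, an alternative added later, the counts came to 275 AG-only and 259 GG-only regions, without an excess of GG-only regions. Without GG replicate 1 the AG-only count was 400, and without AG replicate 1 the GG-only count was 722.

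Group-only regions were narrower than regions of all 4 libraries and close in width to the regions of the mixed pairs. The median width was 1420 bp for AG-only and 1337 bp for GG-only regions, against 1231 bp for mixed-pair regions and 2875 bp for regions of all 4 libraries. The lower of the group's 2 scores had a median of 5.05 and 5.13, the lower score of mixed-pair regions one of 4.75, and the lowest score of regions of all 4 libraries one of 6.14. A score over 10 in both libraries of the group was reached by 7 AG-only regions (252 in all) and 10 GG-only regions (481 in all), and by 110 of 790 regions in the weakest of all 4 libraries. Their distance to the nearest region shared by all 4 libraries had a median of 27.0 kb for AG-only and 24.3 kb for GG-only regions. Of the AG-only regions 58 (23.0%) lay within 10 kb of such a region, as did 149 (31.0%) GG-only regions. Mixed-pair regions were at 29.5%, regions of 3 libraries at 37.9% and regions of 1 library at 22.0%, and over all autosomes AG-only and GG-only regions were at 21.8% and 19.6%. The balance varied between segments of 10 Mb without a steady course. The ratio of GG-only to AG-only regions was lowest, at 1.05, from 10000001 to 20000000, with 42 AG-only (4.03% of 1042 regions) and 44 GG-only regions (4.22%). It was highest, at 4.29, from 60000001 to 70000000, with 17 AG-only (1.72% of 990 regions) and 73 GG-only regions (7.37%). In the first segment it was 1.40 and in the last 1.85. Over the genome 2.12% of regions were AG-only and 5.48% GG-only.

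The strongest hotspot of the chromosome was the same in all 4 libraries. The region chr16:21148085-21149999, 1915 bp wide, had a score of 689 in AG replicate 1, 573 in AG replicate 2, 658 in GG replicate 1 and 404 in GG replicate 2, rank 1 on the chromosome in each list. Each library called it as a single hotspot, with ends between 21149993 and 21149999. The next regions by their lowest score were chr16:63332555-63334022 (scores of 83.9 and 221 in AG and 149 and 126 in GG) and chr16:16562760-16563382 (55.2 and 127 in AG and 108 and 73.8 in GG). The region that ranked 5, chr16:28265912-28267053, had 70.2 and 43.8 in AG and 41.7 and 54.4 in GG. Such values were rare, as the median score on the chromosome was 5.35 to 5.89 in the 4 lists.

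The widest shared regions had lower scores than these. The widest, chr16:48528601-48539151, spanned 10551 bp with highest scores of 7.56 to 11.9 in the 4 libraries. GG replicates 1 and 2 covered 93.2% and 70.6% of it and AG replicates 1 and 2 covered 58.8% and 30.3%. In the next, chr16:25539549-25549711, the GG libraries covered 59.6% and 72.9% and the AG libraries 28.8% and 10.3%. GG libraries covered more than AG libraries in all 5 of the widest shared regions, with 59.6 to 93.2% against 10.3 to 63.0%. In chr16:68417443-68427268, chr16:68698312-68707404 and chr16:2665010-2673799 the AG libraries covered 48.1 to 63.0%. The highest scores in these 3 regions were 10.1 to 15.0 in the AG and 14.0 to 21.7 in the GG libraries. Hotspots over 3 kb also made up a larger share of both GG lists over the whole chromosome, and these 5 regions were picked for their width. The widest hotspot of GG replicate 1 lies in the first of them and that of GG replicate 2 in the next. Higher GG coverage is thus partly built into the pick, and it was not counted over the other regions of all 4 libraries.

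The AG-only region that ranked first by its lower score stood beside shared open chromatin. The region chr16:49112515-49117881, 5367 bp wide, held hotspots with scores of 596 and 421 in AG replicate 1 and 365 and 56.2 in AG replicate 2. The highest of these ranked 2 among all chromosome 16 hotspots in both AG lists, after the shared hotspot at 21148085. No GG hotspot overlapped it. The nearest ended 4.78 kb before it in GG replicate 1 and 4.56 kb before it in GG replicate 2.

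Those nearest GG hotspots belong to a cluster that all 4 libraries shared. At 49102295 to 49105862 the highest scores were 86.4 and 121 in AG and 63.8 and 51.0 in GG, and this region ranked 4 of all regions of the chromosome called in all 4 libraries by its lowest score. The following hotspot began at 49106082 and 49106279 in the AG libraries, with scores of 170 and 235 and widths of 3217 and 3220 bp. In the GG libraries it was 1292 and 1492 bp wide with scores of 35.9 and 35.1. Between 49102295 and 49118057 hotspots covered 11.2 and 10.4 kb in AG and 2.88 kb in both GG libraries. The 1 Mb window around the cluster, from 49000001, was higher in both GG libraries (118 and 84.3 kb against 53.7 and 73.0 kb in AG), opposite to the cluster itself.

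**Figure D5:**
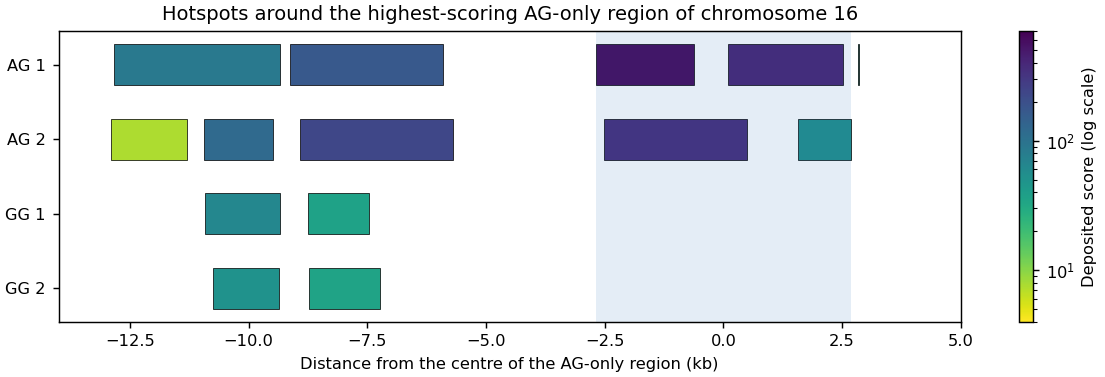
Hotspots of the 4 libraries as bars against distance in kb from the centre of the highest-scoring AG-only region of chromosome 16 (shaded), coloured by the deposited score on a log scale. All 4 libraries have hotspots to the left of the shaded span, while only the AG libraries have hotspots inside the shaded 5367 bp.

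The second AG-only region, chr16:24047939-24052866, was called as 1 hotspot of 4694 bp with a score of 44.7 in AG replicate 1 and as 3 hotspots in AG replicate 2, of which the last had a score of 54.2. The GG libraries had hotspots 3.99 and 6.07 kb away. The next were chr16:9347907-9350375 (scores of 14.1 and 16.6), chr16:30182441-30183804 (13.0 and 17.9) and chr16:44323512-44325204 (11.6 and 18.8). A GG hotspot lay within 10 kb of each of these 5 regions in both GG libraries, at 1.52 to 6.07 kb. The median gap between neighbouring hotspots of the chromosome was 8.51 and 9.67 kb in the GG lists, and how often other positions lie as near was not counted.

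GG-only regions were ranked by their lower score in the same way. The region at the top, chr16:68648206-68650492, had scores of 13.1 and 11.1 in GG replicates 1 and 2, and AG hotspots lay only 0.930 and 0.748 kb away. It was followed by chr16:62209606-62210912 (13.7 and 11.1) and chr16:13722652-13723891 (14.8 and 10.9), whose nearest AG hotspots were 9.47 to 27.7 kb away. The other two were chr16:72391207-72392635 (10.6 and 16.8) and chr16:50728276-50728988 (10.6 and 18.6). In the last of these GG replicate 1 covered only 111 of 713 bp, so its presence in both GG libraries rests on a short overlap.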

How the data were processed

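DNase-seq was done on 2 AG and 2 GG libraries, which were grouped by their titles. For each library the authors deposited a hotspot list of positions with a score, with a false discovery rate of 0.01 in the file names. The submitters' processing notes name the rheMac8 build and, without roles, deepTools 3.3.1, SAMtools, Bowtie2 and Trim Galore; the hotspot caller is not given in the sources used here. A library counted as present in a merged region from 1 bp of overlap on. All 2682 windows were fitted with limma 3.58.1 under R 4.3.3 (lmFit and eBayes without trend, robust fitting or a replicate block), and p-values were adjusted by Benjamini-Hochberg. Simulated data served to test both the window fit and the region merging. The rest ran in Python 3.11.15 (pandas 2.3.3, numpy 2.4.6, scipy 1.17.1, matplotlib 3.10.9).

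The members, the lists and the tests were chosen with earlier results of these data known. By rule, 5 of each kind were named: the windows of smallest p per direction among those whose groups did not overlap, the most and the least covered windows, the longest empty stretches, the widest and the highest-scoring regions of all 4 libraries, and the AG-only and GG-only regions ranked by their lower score. So were the widest and highest-scoring hotspot of each library. Segments of 10 Mb, score classes, the width limit of 3 kb and the hotspots around named regions were added after the data were seen. As alternatives, lists were reduced to their higher-scoring 50% or to one common number, each replicate was left out, regions needed 50% covered or were merged across 150 bp, and shares were taken of hotspot numbers or of autosomes. Windows were refitted with a 10000 bp offset, with every window kept, after median scaling, after centring within chromosomes, at 200 kb (200 bp offset, 400 bp minimum), on hotspot numbers (offset 1, minimum 2), with a variance trend and with a replicate block. Equal covered length was added after the data were seen.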

Additional observations from a re-analysis of the deposited data

How the results depend on the processing

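With no read counts, depth could not be separated from list length. The AG minus GG difference in share of covered bp, by which the chromosome was chosen, kept its direction under all alternatives run (0.441 to 1.18 percentage points with a replicate left out). Leaving out a replicate could not turn it, because both AG shares lay above both GG shares. Covered length differed by 0.346 Mb, from -0.345 Mb, at equal covered length, and by -0.899 to 0.208 Mb with a replicate left out. The value at equal covered length only restates the share of the shortened lists. With the higher-scoring 50% of hotspots kept there were 144 AG-only and 316 GG-only regions, and at equal covered length 259 GG-only regions. With a replicate left out AG-only regions numbered 334 to 2269 and GG-only regions 685 to 2166; without a replicate of the same group a region needs only 1 list, and without one of the other group it must be absent from only 1. The excess of the GG pair over the mixed pairs in Jaccard index was 0.110, 0.137 at equal covered length and 0.0935 to 0.127 with an AG replicate left out. The limma count of 0 windows became 5 with an offset of 10000 bp and 9 with a variance trend, and the cause was not tested. It was 0 with the replicate number as a block. Same-numbered libraries deviated with a correlation of -0.0842 over all windows and -0.281 over the 78 windows of chromosome 16. Neither was positive, so the numbers gave no sign of a pairing. The unadjusted limma p was under 0.05 in 11 windows with and without the block. Windows with both AG higher numbered 16 when centred within chromosomes, which removes the chromosome's mean log2 value by construction, and 36 to 59 with a replicate left out. Those with both GG higher numbered 2 with median scaling, 28 when centred and 6 to 16 with a replicate left out, and made up 15.1% of windows of 200 kb, from 6.41%. Without a replicate the condition rests on fewer libraries and is looser, so both counts could hardly fall. Over the genome 33.9 to 38.8% of windows then lay higher in AG and 38.9 to 45.1% in GG, from 24.1% and 28.9%. When centred, these genome shares were 28.3% and 22.5%, with median scaling 31.1% and 21.7%, and with windows of 200 kb 22.5% and 24.7%. Of 140 alternative values of the 10 named windows none changed sign, and 9 passed the threshold with the larger offset or the trend. These windows were picked among those whose groups did not overlap, so leaving out a replicate could not turn the sign. The variance trend and the replicate block leave the difference itself unchanged.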
